A study of Drosophila melanogaster with 2 samples.

Results

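The genes described here are 10 components of the epidermal growth factor receptor (Egfr) pathway of Drosophila melanogaster: Egfr, spi, vn, rho, S, aos, sty, pnt, aop and Raf. They were chosen by name for their roles, and a peak was counted for a gene when its summit lay in the gene's annotated span or within 1 kb of it. They are 10 of 18277 annotated genes, and 31 of the 2593 thresholded summits of the study lay at them. Binding was measured by ChIP-seq, the sequencing of DNA that an antibody brings down with a protein, in whole embryos of both sexes aged 0 to 16 h. The embryos were of 1 transgenic line with stable expression of Jing carrying a C-terminal GFP tag, and the antibody was directed at GFP. The driver and copy number of the transgene were not stated. The single group held biological replicates 2 and 3, made from separate biosamples, so no test between conditions was possible and all values below are descriptions. Each replicate and the pooled reads had a relaxed list of 30000 peaks, and the thresholded list held the 2593 strongest peaks of the pooled list. Depth is unknown, because the lists hold no read counts. Signal means the value that the authors' files list for a peak. Its scale is not stated, and it is used only to rank peaks within a list, where rank 1 is the strongest. In whole embryos, a peak in a few cells and a weaker peak in many cells cannot be told apart. Coordinates are in dm6 and 1-based, and a negative distance lies upstream of a start site.

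As background, Egfr is a receptor tyrosine kinase whose signal passes through Ras and the kinase Raf to MAP kinase, which acts on the ETS factors encoded by pnt, an activator, and aop, the repressor also called Yan. The ligand Spitz (spi) must be moved by Star (S) and cut by the membrane protease Rhomboid (rho) before it is secreted, while Vein (vn) is secreted without that step. Argos (aos) and Sprouty (sty) limit the pathway and are known as genes that the pathway itself turns on. In the embryo the pathway patterns the ventral ectoderm, supports midline glia and takes part in tracheal development, and Jing, a zinc finger protein, is known for roles in the midline and the trachea.

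All 10 genes held at least 1 thresholded summit. The kinase gene Raf held 10, pnt held 5, S held 4, aos and aop held 3 each, spi held 2, and Egfr, vn, rho and sty held 1 each. Among all annotated genes 13.2% had such a summit, and among the 3156 protein-coding genes with spans in the range of the 10 genes (5.13 to 55.9 kb) 30.9% had one. Lengths within the range were not matched. With the added 1 kb the spans total 296 kb in the 10 genes and 54904 kb in the 3156, which are shorter on average. The 10 genes were named with earlier results of these data known, so the count of 10 is not a test. In the 2593 strongest peaks of replicate 2 alone, 9 of the 10 genes had a summit, with sty the exception, against 13.7% of all genes. In the same number of strongest peaks of replicate 3 alone, 10 of the 10 had one, against 13.4% of all genes.

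**Figure D1:**
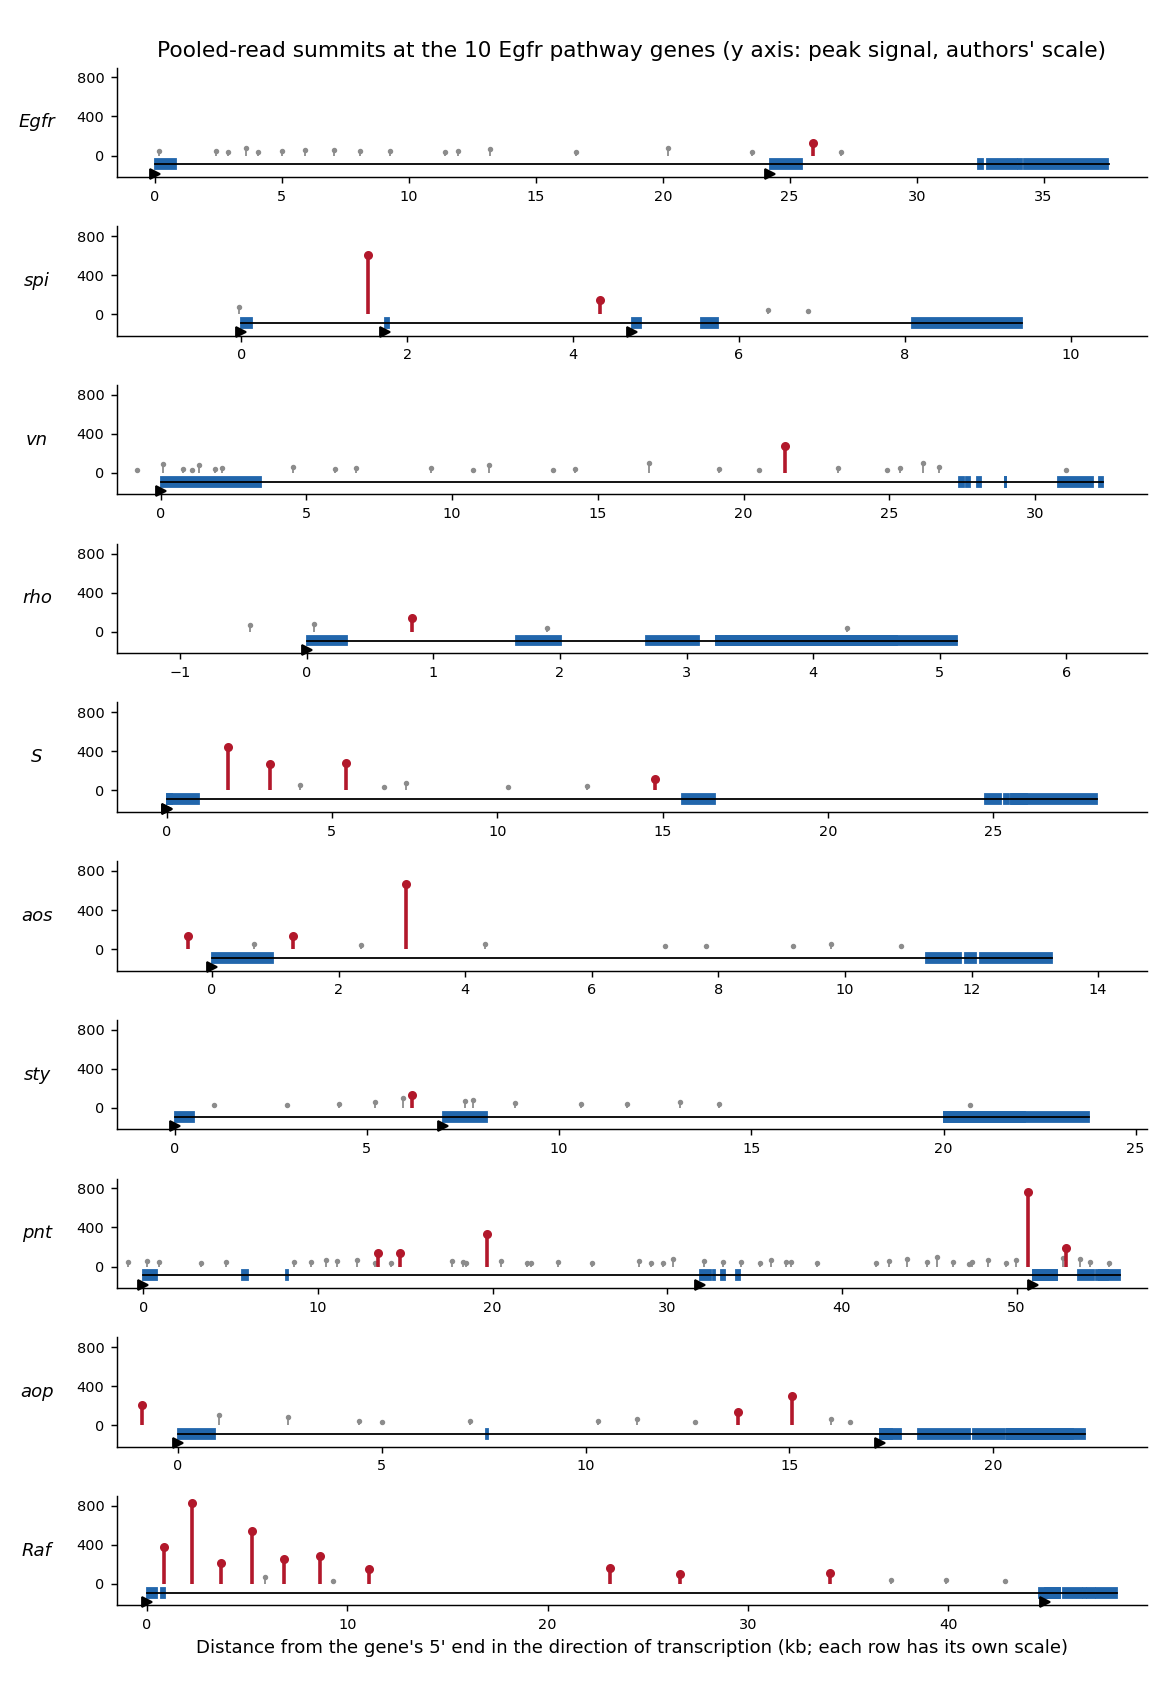
Each row shows a gene from its 5′ end in the direction of transcription (kb, with a scale of its own); stems are summits of the pooled reads with their signal on the y axis, red for thresholded and grey for weaker ones, blue boxes are exons and arrowheads start sites. The strongest summits of pnt and spi lie at an internal start site, those of S and aos in the intron that follows their start sites, and those of Raf in a run near its 5′ end.

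Per length, the 10 genes together held 1.05 thresholded summits per 10 kb, against 0.266 in the protein-coding genes of the same span range. Raf supplied 10 of the 31, and the other 9 genes together held 0.854 per 10 kb. Of the 10 genes, 6 had 2 or more thresholded summits, against 10.1% of the genes of that range, which are shorter on average. The densest were Raf with 1.98 and aos with 1.97 per 10 kb, and the sparsest was Egfr with 0.253, close to the value of the range. In the relaxed pooled list the genes held 167 summits, or 5.64 per 10 kb against 2.42. There the order differed: pnt was densest with 8.98 per 10 kb, followed by vn with 7.28, while S with 2.99 and Raf with 2.98 were the lowest. Of the relaxed summits, 66.7% passed the threshold in Raf (10 of 15) and 44.4% in S (4 of 9), but 9.62% in pnt (5 of 52) and 4% in vn (1 of 25). The share was 18.6% over the 10 genes and 11% over the genes of the same range.

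**Figure D2:**
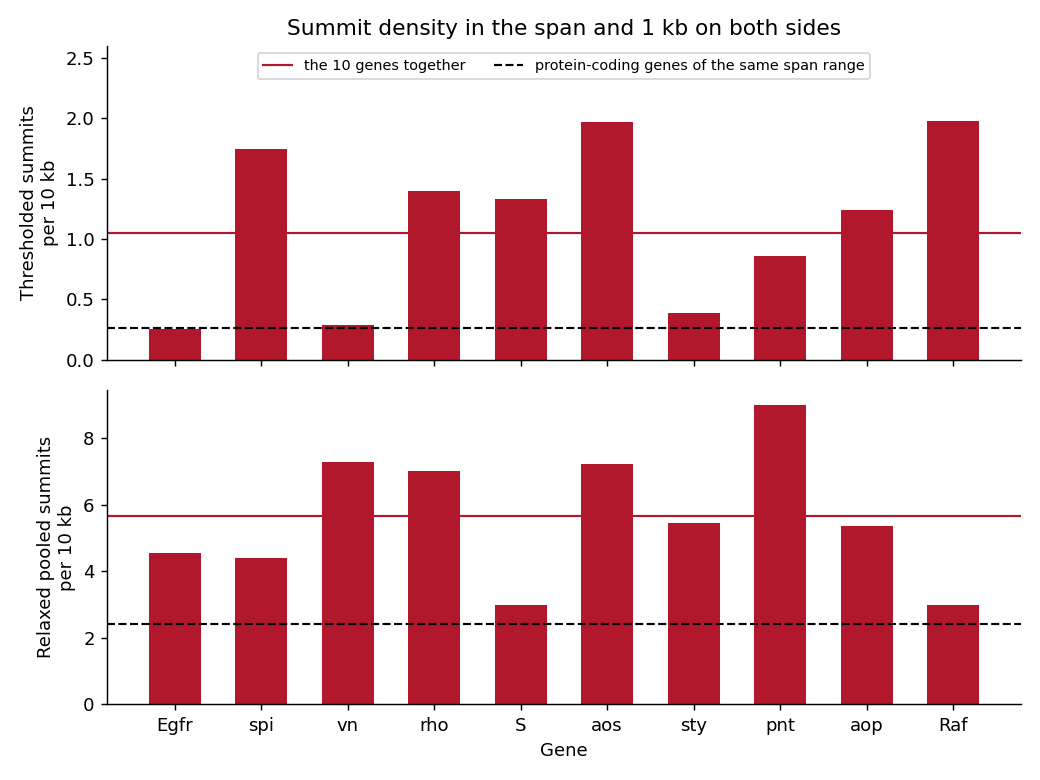
Bars give summits per 10 kb of each gene's span with 1 kb on both sides, for the thresholded list (top) and the relaxed pooled list (bottom); the red line is the value of the 10 genes together and the dashed line that of protein-coding genes with the same range of spans. Raf is the highest in the top panel and the lowest in the bottom one, at 1.98 and 2.98 per 10 kb.

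The summits lay mostly in introns. Of the 31, 24 were intronic (77.4%, 95% Wilson interval 60.2 to 88.6), 5 were within 500 bp of an annotated start site of any gene (16.1%, interval 7.09 to 32.6), 1 was in a 5′ UTR and 1 was intergenic. The protein-coding genes of the same span range had 1351 thresholded summits in them or within 1 kb. Of these, 51.4% were intronic and 43.2% were within 500 bp of a start site. Those genes are shorter on average than the genes described here, and lengths within the range were not matched. Whether the difference in shares depends on gene length was not tested. With a promoter of 1 kb the share of the 31 was 32.3%, and no background share at 1 kb is given here. The intervals cover counting error only and treat summits as independent, which neighbouring ones are not, and no test of the difference was made. Counted to the gene's own nearest start site, 4 summits lay within 500 bp, 8 at 500 bp to 2 kb, 6 at 2 to 5 kb and 13 farther away, with a median of 3122 bp. Of the 19 start sites of these genes, 4 had a thresholded summit within 500 bp (21.1%), and they belonged to spi, aos and pnt. Among all 23694 annotated start sites, not matched for type or length of gene, the share was 6.66%. In the relaxed pooled list the shares were 52.6% and 26.1%. Of the 28 summits inside an intron of their gene, 15 lay in the first intron of a transcript (53.6%, interval 35.8 to 70.5), against 69.3% of 1418 over all protein-coding genes. No Raf summit was among the 15. The long intron of Raf, of 43.6 kb, is the second of Raf-RE and follows a first intron of 195 bp. The lower share thus depends largely on Raf. Outside Raf, all intronic summits that lay in no first intron belonged to pnt, so the lower share does not describe the remaining genes.

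By thresholded summits per length, the receptor gene itself was among the most sparsely marked. Its relaxed summits, at 4.55 per 10 kb, were denser than the 2.42 of the genes of the same span range. Egfr (FBgn0003731, 2R 21522420 to 21559977, plus strand) held 18 relaxed summits and 1 thresholded one, at 21548342 with a signal of 129 and rank 1970. That summit lay 1699 bp downstream of the start site of Egfr-RB, in the intron that follows it, and ranked 2126 in replicate 2 and 2144 in replicate 3. The replicates placed it at nearly the same rank. Neither start site of Egfr had a thresholded summit within 500 bp. The relaxed list had 1 at 152 bp downstream of the start of Egfr-RA, with a signal of 48.9 and rank 9611.

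The ligand gene vn encodes a neuregulin-like secreted protein. Its span (FBgn0003984, 3L 5813338 to 5845664, minus strand) held 25 relaxed summits, of which only that at 5824234 passed the threshold, with a signal of 272 and rank 604. It lay deep in the long intron, 21430 bp downstream of the start site, where the nearest start site, that of mad2, is also more than 10 kb away. Its rank was 395 in replicate 2 and 905 in replicate 3, so it stood well inside the strongest 2593 of each. The next summit of vn, at 5819522 with a signal of 105 and rank 2631, fell just below the threshold. At the start site of vn a relaxed summit at 71 bp had a signal of 95.8 and rank 2958.

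The gene of the main ligand, spi, carried its peaks at internal start sites. In spi (FBgn0005672, 2L 19567900 to 19577315, minus strand) the summit at 19575789 had a signal of 611 and rank 107, and lay at -202 bp from the start site of spi-RG. It ranked 188 in replicate 2 and 78 in replicate 3. The summit at 19572989, at -379 bp from the start of spi-RB and spi-RE, had a signal of 141 and rank 1744, with ranks of 2610 and 1509 in replicates 2 and 3. The outermost start site, that of spi-RA and spi-RF, had only a relaxed summit at -30 bp, with a signal of 73.8 and rank 4284. All 3 start sites thus had a summit, but of very unequal strength. The 200 bp around the strongest summit are shown because they hold the strongest peak of a ligand gene. They lie in an intron of the longer transcripts, and the capitals mark GATAAG on the opposite strand, a sequence that factors of the GATA family bind:
spi, chr2L:19575689-19575888, minus strand: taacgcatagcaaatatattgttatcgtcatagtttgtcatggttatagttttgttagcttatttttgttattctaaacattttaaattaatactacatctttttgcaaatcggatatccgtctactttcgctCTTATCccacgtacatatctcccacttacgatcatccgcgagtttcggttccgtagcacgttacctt

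The genes of ligand processing differed in their number of peaks. The protease gene rho (FBgn0004635, 3L 1463811 to 1468944, plus strand) had 1 thresholded summit at 1464638, in its own intron 827 bp downstream of the start site. Its signal was 139 and its rank 1773. It ranked 2660 in replicate 2 and 1467 in replicate 3. The gene rho lies wholly within the phosphatase gene Ptp61F on the opposite strand, which held 5 thresholded summits in or within 1 kb of its own span, so the peak could be counted for either gene. At the start site of rho, 54 bp downstream, a relaxed summit with a signal of 78.8 had rank 3910.

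Star, the chaperone and export factor of Spitz, is encoded by S (FBgn0003310, 2L 1049674 to 1077815, minus strand). All 4 of its thresholded summits were in the intron after its start sites. The strongest, at 1075962 and 1849 bp from the nearer start, had a signal of 441 and rank 227, with rank 370 in replicate 2 and 187 in replicate 3. The next, at 1072375 and 5436 bp from the start, had a signal of 283 and rank 561. That at 1074689 and 3122 bp had a signal of 270 and rank 611. The weakest, at 14781 bp, had a signal of 120 and rank 2197. The 3 stronger ones were among the 2593 strongest peaks of both replicates. No summit of the relaxed list lay within 500 bp of the start sites. The strongest window is shown as an example of an intronic peak without a match to any sequence searched:
S, chr2L:1075862-1076061, minus strand: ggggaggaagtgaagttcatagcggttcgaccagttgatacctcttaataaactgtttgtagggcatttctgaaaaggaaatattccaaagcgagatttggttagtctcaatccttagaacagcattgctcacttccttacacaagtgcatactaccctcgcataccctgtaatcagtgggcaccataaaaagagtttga

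Both antagonist genes had thresholded peaks: 1 strong and 2 weak ones in aos, and 1 weak one in sty. The gene aos (FBgn0004569, 3L 16470386 to 16483650, minus strand) encodes the secreted inhibitor Argos. Its strongest summit, at 16480578 in the intron 3072 bp from the start site, had a signal of 668 and rank 89, with rank 77 in replicate 2 and 109 in replicate 3. A summit at -374 bp from the start site had a signal of 136 and rank 1854, and a summit 1277 bp downstream had a signal of 133 and rank 1901. These weaker ones were higher in replicate 3, at ranks 1466 and 1664, than in replicate 2, at ranks 3513 and 2873. The gene aos lies within CG33158 on the opposite strand, whose 3 thresholded summits are the same ones. The window of the strongest summit holds 1 match to GAGAGA, the core of the repeat bound by the GAGA factor, here on the opposite strand and in capitals:
aos, chr3L:16480478-16480677, minus strand: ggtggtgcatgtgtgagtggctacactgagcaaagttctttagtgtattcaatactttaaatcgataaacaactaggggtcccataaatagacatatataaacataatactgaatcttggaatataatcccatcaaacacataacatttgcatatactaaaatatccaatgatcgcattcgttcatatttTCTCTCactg

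In sty, which encodes the intracellular inhibitor Sprouty (FBgn0014388, 3L 3401153 to 3424935, minus strand), the replicates did not place the peak at the same position. The thresholded summit, at 3418763 and -802 bp from the start site of sty-RB, had a signal of 129 and rank 1989. In replicate 2 a summit 1 bp away had rank 3679. In replicate 3 no summit lay within 100 bp of it, and the nearest, 228 bp away at 3418991, had rank 1396. The pooled list had a summit at 3418992 as well, with a signal of 98.6 and rank 2838. This was the only summit of the 31 that lacked a match in a replicate list.

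Raf, the kinase gene, had the most thresholded summits and the longest run of them. The gene (FBgn0003079, X 2295466 to 2343870, plus strand) has 2 annotated start sites, the outer one for Raf-RE and an inner one at 2340298 for Raf-RA, and an intron of 43.6 kb lies between them. From the 5′ UTR into that intron ran 7 thresholded summits in 10.3 kb, at 2296317, 2297713, 2299182, 2300691, 2302314, 2304095 and 2306571. Their signals along the gene were 374, 829, 218, 541, 252, 289 and 149, and their ranks ran from 51 to 1602. Neighbouring summits were 1396 to 2476 bp apart, with a median of 1566 bp, and the gaps grew along the gene from each to the next. No other stretch of any arm held 7 thresholded summits in as short a distance, a comparison whose number and width were set by this run after its values were seen.

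The run was present in both replicates. Of its 7 summits, 6 were among the 2593 strongest of replicate 2 and 7 among those of replicate 3. The strongest, at 2297713, had rank 56 in replicate 2 and 48 in replicate 3, and the one at 2300691 had ranks of 183 and 128. The last, at 2306571, was the exception: its rank was 977 in replicate 3, while replicate 2 had a summit 63 bp away at rank 13951 and one 138 bp away at rank 3404. The other 3 thresholded summits lay at 2318583, 2322051 and 2329558, farther along the intron, with signals of 161, 106 and 115. The one at 2322051 is 213 bp from the start site of lncRNA:CR34052 and the one at 2329558 is at -601 bp from that of lncRNA:CR33218, genes nested in Raf. Neither start site of Raf had a summit of the relaxed pooled list within 500 bp. A copy of the transposable element Tirant that the annotation places in the intron (2308848 to 2317374, 8.53 kb) held no summit in any of the lists. The sources used here do not say how repeat reads were handled, so that gap is not a measure of binding.

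**Figure D3:**
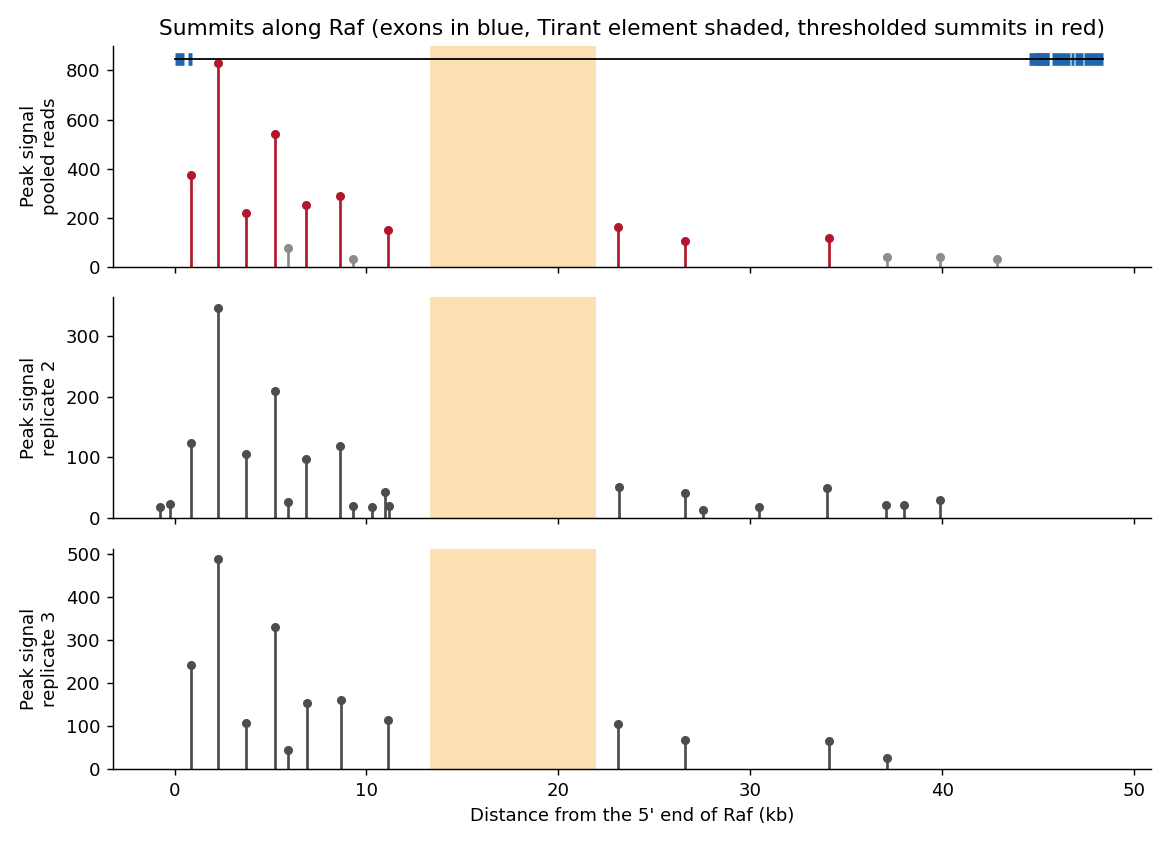
Summits along Raf by distance from its 5′ end (kb) for the pooled reads (top; thresholded in red), replicate 2 (middle) and replicate 3 (bottom), with the signal on a y axis of its own in each panel. The 7 summits of the first 12 kb recur in both replicates, the last of them weakly in replicate 2, and the shaded Tirant element has none.

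Sequences of the run differed from each other. The windows of 3 of its summits are shown. They hold the strongest peak of the 31, the next strongest of the run, and the longest GAGA repeat among the 31. The first, at 2297713, has 1 match to GAGAGA on the opposite strand. The second, at 2300691, has GTGTGTG, the GT repeat, and the third, at 2302314, has an unbroken GA repeat that counts as 8 overlapping matches to GAGAGA. Capitals mark the matches:
Raf, chrX:2297613-2297812, plus strand: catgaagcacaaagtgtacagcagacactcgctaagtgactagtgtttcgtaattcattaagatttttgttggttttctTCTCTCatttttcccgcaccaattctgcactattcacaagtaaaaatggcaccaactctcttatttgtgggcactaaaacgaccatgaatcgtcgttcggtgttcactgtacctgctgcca
Raf, chrX:2300591-2300790, plus strand: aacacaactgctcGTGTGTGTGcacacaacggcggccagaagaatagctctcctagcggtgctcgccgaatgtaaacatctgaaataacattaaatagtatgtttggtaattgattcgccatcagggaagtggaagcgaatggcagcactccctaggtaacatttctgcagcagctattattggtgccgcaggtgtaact
Raf, chrX:2302214-2302413, plus strand: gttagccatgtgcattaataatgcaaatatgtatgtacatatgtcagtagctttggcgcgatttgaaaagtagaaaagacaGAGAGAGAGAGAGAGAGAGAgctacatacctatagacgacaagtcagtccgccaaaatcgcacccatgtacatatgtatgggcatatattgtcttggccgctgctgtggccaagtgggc

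Among the ETS effector genes, pnt had its strongest peak at the innermost of its start sites. In pnt (FBgn0003118, 3R 23290231 to 23346167, minus strand) the summit at 23295507, at -269 bp from the start of pnt-RC and pnt-RE, had a signal of 763 and rank 64. It ranked 21 in replicate 2 and 151 in replicate 3. The other start sites had only relaxed summits: 240 bp downstream of that of pnt-RB one had a signal of 61.8 and rank 5844, and 241 bp downstream of that of pnt-RD one had a signal of 52.7 and rank 8036. Of the other thresholded summits, that at 23326481 lay in an intron with a signal of 333 and rank 418, and that at 23293319 lay 1919 bp downstream of the innermost start with a signal of 194 and rank 1032. The remaining 2, at 23332717 and 23331492, lay close together between the start sites of pnt-RB and pnt-RD, with signals of 143 and 141. The summit at 23331492 ranked 1123 in replicate 2 and 3970 in replicate 3.

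The repressor gene aop (FBgn0000097, 2L 2156484 to 2178754, minus strand) had 3 thresholded summits and none within 500 bp of a start site. The strongest, at 2163683, had a signal of 303 and rank 491, and lay at -2156 bp from the inner start site of aop-RA and aop-RD. It ranked 488 in replicate 2 and 550 in replicate 3. The summit at 2179635 was the only intergenic one of the 31, at -881 bp from the outer start site, with a signal of 206 and rank 951. The summit at 2165007 had a signal of 139 and rank 1782. A summit at 2177755 with rank 2617 fell just below the threshold. The windows of the strongest summits of pnt and aop are shown because both hold GAGAGA, in pnt on both strands beside a GT repeat:
pnt, chr3R:23295407-23295606, minus strand: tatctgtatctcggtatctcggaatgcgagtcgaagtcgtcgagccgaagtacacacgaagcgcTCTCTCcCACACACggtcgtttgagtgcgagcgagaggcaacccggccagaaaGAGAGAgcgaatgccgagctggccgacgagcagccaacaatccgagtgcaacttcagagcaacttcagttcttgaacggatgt
aop, chr2L:2163583-2163782, minus strand: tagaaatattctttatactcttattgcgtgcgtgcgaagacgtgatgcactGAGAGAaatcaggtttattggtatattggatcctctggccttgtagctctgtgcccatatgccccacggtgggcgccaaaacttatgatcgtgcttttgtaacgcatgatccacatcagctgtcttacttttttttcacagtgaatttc

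Of the sequences searched, the GAGA repeat had the largest difference in percentage points between the 31 windows of 200 bp and all thresholded peaks, while as a ratio the GT repeat differed about as much. GAGAGA on either strand was in 11 of 31 windows (35.5%, 95% Wilson interval 21.1 to 53.1), against 11.7% of all 2593 thresholded summits and 10.3% of the 200 bp before all annotated start sites. Among intronic summits it was in 7 of 24 windows (29.2%) against 10.9% of 1019. The windows belonged to spi, aos, pnt, aop and Raf, and without Raf the count was 9 of 21 (42.9%). In 100 bp windows the share was 19.4% against 4.32% of all thresholded summits, and in 400 bp windows 45.2% against 26.4%. GTGTGTG was in 5 windows (16.1%, interval 7.09 to 32.6) against 5.21% of all thresholded summits. These are descriptions with no test of the difference. A match is a run of letters and not a measured site.

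For the other sequences, the share in all thresholded summits lay within the 95% interval of the 31 windows. The ETS core, searched because the products of pnt and aop bind it, was absent as CCGGAA and present as CAGGAA in 3 of 31 windows (9.68%, interval 3.35 to 24.9), against 5.98% for CAGGAA and 9.29% for either form. All 3 were intronic, and among intronic summits CAGGAA was in 12.5% of 24 windows against 5.99% of 1019. TAATTA, a homeodomain sequence, was in 4 windows (12.9%) against 16.7%, and GATAAG in 4 (12.9%) against 10%. The Capicua sequence TGAATGAA was in 1 window, that of sty (3.23%), against 1.66% of all thresholded summits. TATCGATA, the DRE, and TGANTCA, the AP-1 sequence, were in none of the 31, a count that allows up to 11% by the Wilson interval, and in 1.08% and 4.74% of all thresholded summits. The GC content of the windows was 40.3% ± 7.02 (SD over 31 summits) against 35.9% ± 7.23 over the 2593.

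**Figure D4:**
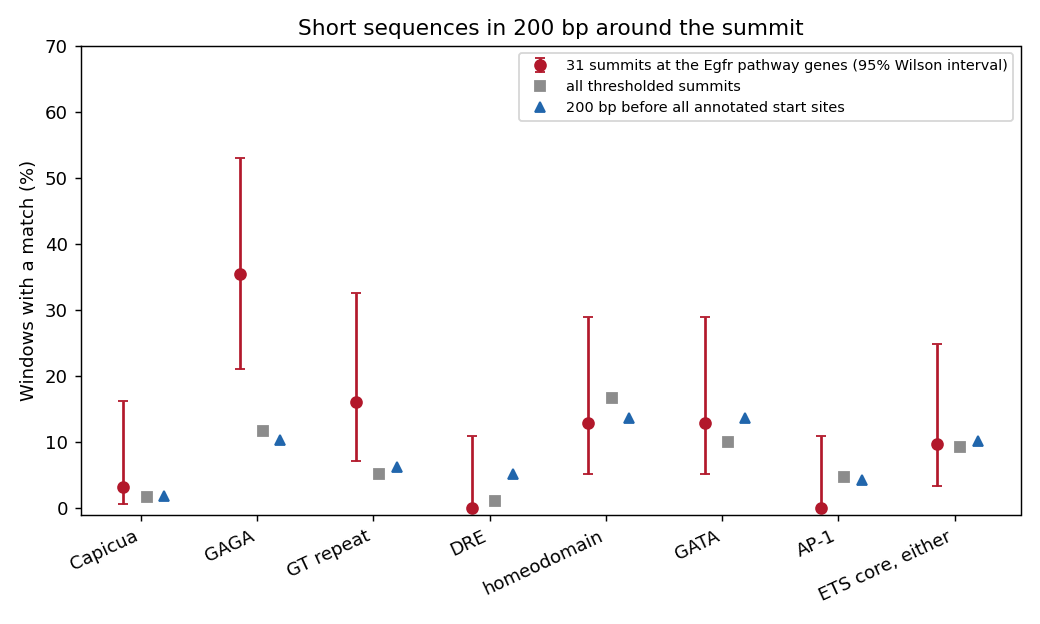
Share of windows with a match to each sequence, by name, for the 31 summits at the Egfr pathway genes (red, with 95% Wilson intervals), all thresholded summits (grey) and the 200 bp before all annotated start sites (blue). The GAGA repeat is at 35.5% in the 31 windows and at 11.7% in all thresholded summits.

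The replicates ranked these peaks much as they ranked the others. Of the 31 summits, 30 had a summit within 100 bp in both relaxed replicate lists (96.8%), against 94.1% of the 2593. Both replicates had 19 of them among their 2593 strongest (61.3%, against 69.3%). Replicate 2 gave the better rank in 13 and replicate 3 in 17 of the 30. The ranks differed by a median factor of 1.67, against 1.49 over the 2440 thresholded peaks found in both, and 66.7% were within a factor of 2, against 74.3%. Across the 30 summits, which share libraries and are not independent, Spearman's rho of the signals was 0.797, and across the 2440 it was 0.669. The strongest summit of pnt had a factor of 7.19. The last summit of the Raf run had 14.3 against the nearest replicate 2 summit within 100 bp, and 3.48 against the stronger one 138 bp away.

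**Figure D5:**
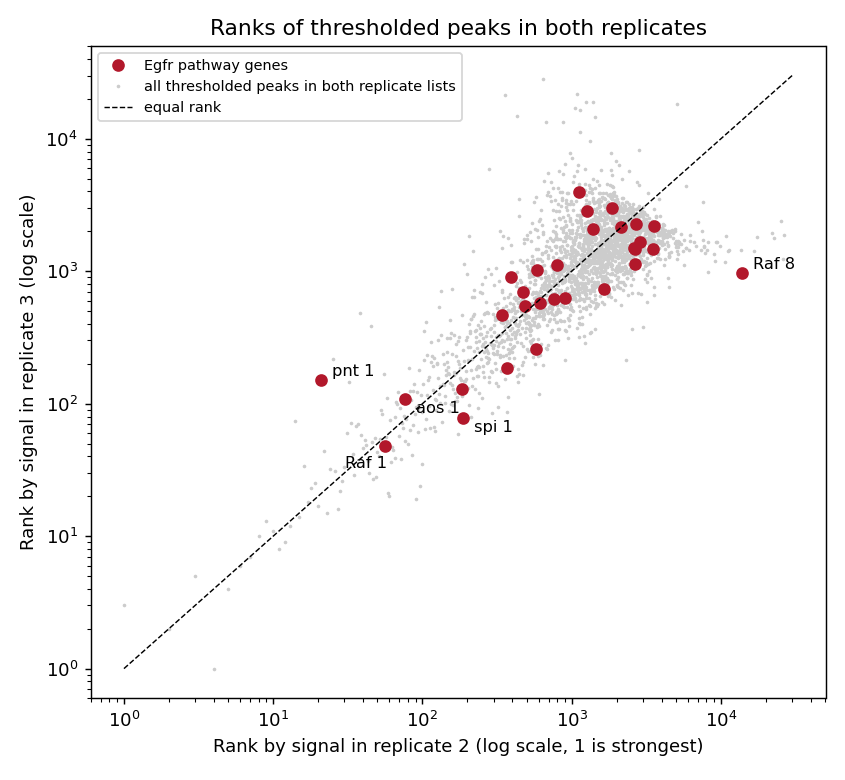
Rank by signal in replicate 2 (x axis) against replicate 3 (y axis), both on log scales, for the 30 summits at the Egfr pathway genes found in both lists (red) and all such thresholded peaks (grey); labels give the gene and the order of the summit by pooled signal. Of the 30 red points, 20 lie within a factor of 2 of equal rank, and pnt 1 and Raf 8 lie farthest from it, Raf 8 by its nearest match within 100 bp.

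Of 28 other pathway genes, 12 had a thresholded summit (42.9%) and 16 had none. Among all annotated genes the share was 13.2%, and among protein-coding genes with spans in the range of the 28 (1.66 to 54.5 kb) it was 19.1%. Together the 28 genes held 0.483 thresholded summits per 10 kb. The adaptor gene Shc had the strongest, at -125 bp from its start site, where the signal at 3L 9426885 was 919 (rank 36). It was followed by gro, a corepressor gene, at -128 bp from a start site, with 581. Next were edl, which encodes an antagonist of Pointed and Yan, in an intron with 528, and RasGAP1, a negative regulator of Ras, at -679 bp from its start, with 525. The adaptor gene drk had 1 summit with a signal of 358, nearest to the start site of mars, and ebi had 1 with 190, nearest to that of AP-2alpha. Of the 16 without a thresholded summit, 8 had no relaxed pooled summit either.

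The FGF pathway, the other receptor tyrosine kinase pathway of the trachea and mesoderm, had 5 thresholded summits. Of its 6 genes, htl, bnl, pyr, ths and stumps had 1 thresholded summit each and the receptor gene btl had none. Among all annotated genes 13.2% had a thresholded summit, and among protein-coding genes with spans in the range of the 6 (7.46 to 57.6 kb) 35.6% did. Per length, the 10 Egfr pathway genes held 1.05 thresholded summits per 10 kb and the FGF genes 0.29. Without Raf the first value was 0.854, and the 28 other Egfr pathway genes held 0.483. The signals of the FGF genes were 128 to 268, and the highest of each Egfr pathway gene ran from 129 to 829. In htl, bnl, pyr and stumps the summit was within 500 bp of a start site, at -332, -28, 5 and -270 bp. The difference between the 10 genes and the FGF genes was not tested, and the 10 genes do not stand for the whole pathway.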

How the data were processed

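ChIP-seq was done on 2 replicates of 1 group. Per the readme texts that the authors deposited, peaks were called on dm6 against a control alignment, for both replicates singly and for their pooled reads. The thresholded list is the optimal list of the irreproducible discovery rate (IDR) procedure. Which aligner and peak caller were run was not stated. Fragments were sonicated to 200 to 800 bp, per the labels. The deposited peaks carry a signal on an unstated scale. They also carry a −log10 q-value, going by the narrowPeak column definitions. The deposited −log10 values of thresholded peaks ran from 2.01 to 3.53.

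From these lists, summits were assigned to genes of Ensembl release 115 without transposable elements, and sequence was read from the RefSeq copy of the Release 6 assembly. The spans of the 10 genes were the same in the RefSeq annotation. The name Gap1 was matched through an older symbol to RasGAP1. A summit was classed as promoter when within 500 bp of any start site, otherwise by exon part, then intron, then intergenic. Summits of 2 lists matched within 100 bp. Sequences were sought in 200 bp around the summit on both strands, with overlapping matches counted.

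The members, lists, sequences and rules were chosen with earlier results of these data known. Summits were described in full for at most 3 per gene, or more briefly for a run, and other genes were named where they overlap, are nearest or had one of the 6 strongest peaks of the pathway list. The run in Raf and the GAGA share were singled out after their values were seen. The steps were checked on planted summits and sequences. The work used Python 3.11.15 with pandas 2.3.3, numpy 2.4.6 and scipy 1.17.1, and figures were drawn with matplotlib 3.10.9.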

Additional observations from a re-analysis of the deposited data

How the results depend on the processing

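Of 46 alternative values of 8 results, 38 stayed within 1.5 times the main count or, for shares, within its 95% interval. With only the 1296 strongest peaks, 7 of the 10 genes had a summit and 17 of 31 summits were left, as the shorter list implies. All 17 were found in both replicate lists, and 1 window held an ETS core, against 3 with the full list. Requiring a match among the 2593 strongest peaks of each replicate left 19 of 30 summits. With no distance added to the spans, 7 of the other pathway genes had a summit in place of 12, while the 10 genes described had 29 summits. The ETS core was in 1 window at 100 bp and in 5 at 400 bp. The GAGA share, whose alternatives were added after seeing the data, was 19.4% at 100 bp and 45.2% at 400 bp, against 4.32% and 26.4% of all thresholded summits. With the strongest peaks of 1 replicate alone, the summits at the 10 genes numbered 27 to 33 and the promoter share was 14.8% to 15.2%. With a promoter of 1 kb that share was 32.3% against 16.1%, still inside the 95% interval of the main value. In the same lists of 1 replicate alone, the other pathway genes with a summit numbered 11 to 13. Windows with an ETS core numbered 2 to 4 there, and the GAGA share was 27.3% to 33.3%. No paired analysis was possible because there was 1 group. The number of reads behind each peak is unknown, which limits what the weaker ones show.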

Other observations

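Several summits at these genes were strong in 1 replicate and absent from the thresholded list. At the start site of vn, replicate 2 had a summit at 3L 5845594 with rank 920, and replicate 3 had none within 100 bp. The pooled rank was 2958. At the start site of rho, replicate 2 had one at 3L 1463820 with rank 2116, and replicate 3 had none within 100 bp of that position. The pooled summit there, at 1463865, did have a match in replicate 3, at rank 26340. In pnt, replicate 2 had one at 3R 23300712 with rank 1582. In aop, replicate 3 had one at 2L 2162072 with rank 1109 that had no summit within 100 bp in replicate 2 or in the pooled list. In all, 11 summits of the 2593 strongest of a replicate lay at these genes without a thresholded summit within 100 bp, 5 in replicate 2 and 6 in replicate 3. These were 18.5% of 27 in replicate 2 and 18.2% of 33 in replicate 3, against 18.2% and 14.3% of all 2593 strongest peaks, so the genes were near the background. These were chosen after their values were seen.

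Of the protein-coding genes nested in the long Raf intron, CG14050 and the insulin-like gene Ilp6 had no thresholded summit within 1 kb. CG2854 had 1 within 1 kb, at 2329558. It lay outside the span of CG2854 and is the same summit given above for Raf near lncRNA:CR33218. Among all annotated genes 13.2% had a thresholded summit in their span or within 1 kb.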
